A study of Mus musculus with 30 samples.

Results

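Activated macrophages make reactive molecules to attack microbes and must at the same time protect themselves from them. Described here are 10 genes on both sides of that balance: Acod1, Nos2, Gch1, Cybb and Sod2, which belong to the inflammatory programme, and Hmox1, Nqo1, Gclm, Txnrd1 and Srxn1, which encode protective enzymes. They were chosen by name, with earlier results of these data known, and are 10 of the 24761 gene symbols measured. Their RNA was sequenced in macrophages that were grown with the growth factor M-CSF from wild-type C57Bl/6 bone marrow. In every group the cells first had 2 h of pretreatment. The vehicle DMSO was given to 7 cultures, named r1, r2, UKD and D3 to D6. The cultures M2, M3 and M4 had 1 µM metaproterenol hemisulfate (MPH), an agonist of the β2 adrenergic receptor, which raises cyclic AMP (cAMP) in the cell. Each culture gave 1 library before lipopolysaccharide (LPS, from the outer membrane of bacteria, which Toll-like receptors detect), called 0 h, and 1 library after each of 1 and 2 h of LPS, labelled as 100 ng/µL. This makes 21 DMSO and 9 MPH libraries, 30 in all. No library was taken at 1 or 2 h without LPS. Changes from 0 h described below as LPS responses therefore cannot be told apart from those of time, handling or longer DMSO or MPH exposure. The labels give names such as D3 and no animals, and each name is taken here as 1 culture. The p-values here measure the spread between these cultures, which may be partly technical. Those fits treat the libraries of 1 culture as unrelated. Where culture is fitted as a replicate block, p-values measure instead how the change with time varies from culture to culture.

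The libraries held about 5.4 to 92.1 M reads (M for mega, median 41.3 M), and the lowest were at 1 h, in D6, UKD and D4 with about 5.38 M, 8.49 M and 9.71 M reads. All 8 macrophage markers reached 1 RPKM (reads scaled by transcript length and by the mapped reads of the library) in every group, with summed levels of 3984 to 7198 RPKM. The markers of B cells, of T and NK cells, of dendritic cells and of erythroid and mast cells all stayed below 1 RPKM. Of 4 stromal markers Col1a2 and Pdgfrb just reached it, with at most 1.04 and 1.05 RPKM, and the list summed to at most 2.46 RPKM in a DMSO library and 0.808 RPKM in an MPH library. Summed levels of 8 neutrophil markers before LPS ran from 39.7 to 52.3 RPKM with MPH and from 5.33 to 46.8 RPKM in D3 to D6, and their part in the results below was not tested. In bulk RNA, fewer cells that express a gene and less RNA per cell cannot be told apart.

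As background, Toll-like receptor signalling activates the transcription factors NF-κB and AP-1, and the interferon it evokes acts through further factors. Acod1 then makes itaconate from cis-aconitate of the citric acid cycle, Nos2 makes nitric oxide from arginine, and Cybb is the catalytic subunit of the phagocyte NADPH oxidase, which makes superoxide. NRF2, the product of Nfe2l2, is held in the cytoplasm by KEAP1 and, when oxidants or electrophiles modify KEAP1, enters the nucleus and switches on protective genes through antioxidant response elements. Hmox1, Nqo1, Gclm, Txnrd1 and Srxn1 are standard examples of its targets, and itaconate is itself known as a modifier of KEAP1.

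Before LPS the genes stood at very different levels. RPKM is scaled by transcript length, so levels can be set side by side between genes. Over the 7 DMSO cultures at 0 h, Hmox1 was the most abundant at 262 ± 101 RPKM (SD, n = 7, as for the other means in this paragraph). Txnrd1 at 70.7 ± 18.5, Gclm at 66.1 ± 36.1, Cybb at 46.8 ± 27.0 and Srxn1 at 42.0 ± 20.9 RPKM came next, and neighbours in that order lay within each other's spread. Sod2 at 8.90 ± 2.25, Acod1 at 7.79 ± 11.1, Nqo1 at 5.11 ± 3.55 and Gch1 at 4.26 ± 1.33 RPKM again lay within the spread of their neighbours. Nos2 was the lowest, at 0.0627 ± 0.0995 RPKM. After 2 h of LPS the order had changed at both ends: Acod1 came first at 786 ± 266 RPKM, Hmox1 second at 194 ± 73.4 RPKM, Nos2 was no longer last, with 18.5 ± 16.7 RPKM beside 12.2 ± 4.87 RPKM for Gch1, which lay within its spread, and Nqo1 was last at 4.03 ± 2.93 RPKM.

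**Figure D1:**
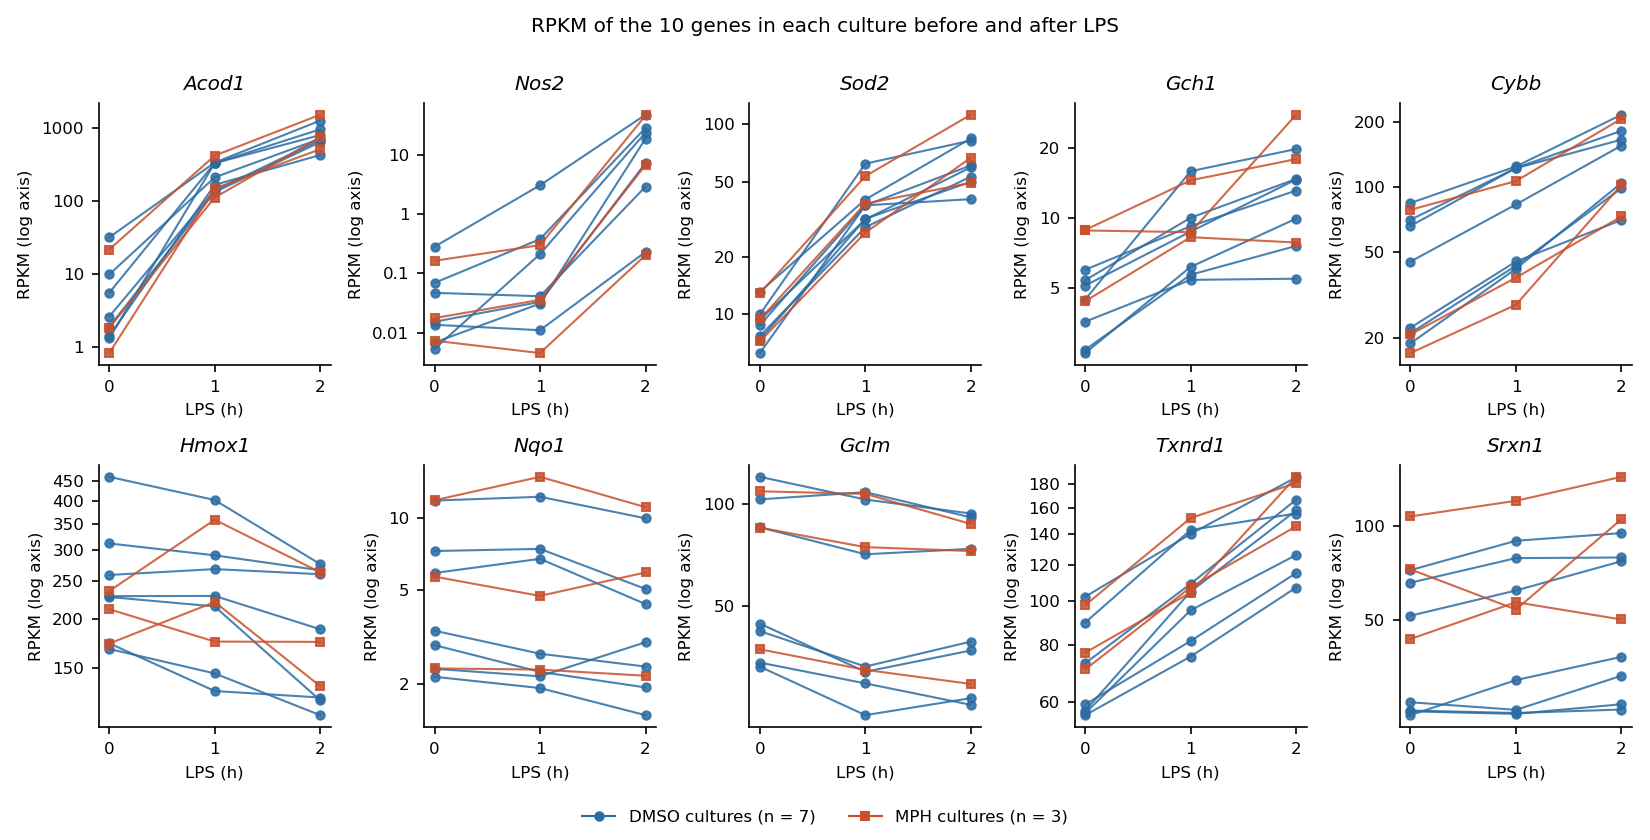
RPKM on a log axis against hours of LPS for the 10 genes, with 1 line per culture, blue circles for the 7 DMSO cultures and red squares for the 3 MPH cultures. Acod1, Sod2, Cybb and Txnrd1 climb in every culture, Nos2 climbs mainly between 1 and 2 h, and the lines of Nqo1, Gclm and Srxn1 run far apart from culture to culture.

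In DMSO cultures 5 of the 10 genes rose at 1 h of LPS: Acod1, Sod2, Gch1, Cybb and Txnrd1. At 2 h 6 rose, when Nos2 joined them. Hmox1 was the only one that fell in that test, at 2 h. These calls come from limma on log2(RPKM + 0.5), a scale that understates changes of low genes, with p-values adjusted by the Benjamini-Hochberg method over 10212 genes and a threshold of 0.05. Among all genes tested 20.3% were called at 1 h, 5.24% higher and 15% lower, and 54.1% at 2 h, 10.5% higher and 43.6% lower. The 10 genes were chosen with earlier results of these data known, so setting their median beside all genes is only a description. The median difference over the 10 genes was 0.54 at 1 h and 1.20 at 2 h on that log2 scale, beside -0.15 and -0.25 over all genes. That general shift depends on the scaling: with median-of-ratios scaling, which centres the libraries on their common genes, the median of all genes moved up by 0.130 at 1 h and 0.206 at 2 h, and small falls have to be read against it. Counts of DMSO cultures that moved the same way are given below as descriptions, without their share over all genes.

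Acod1 had the largest difference of the 10 on the log2(RPKM + 0.5) scale, whereas by the plain ratio of 2 h to 0 h Nos2, which started near 0, was ahead of it in D4, D5, D6, UKD and r1. In the DMSO cultures it went from 1.32 to 31.9 RPKM before LPS (median 2.62), to 133 to 337 RPKM at 1 h (median 211) and to 427 to 1266 RPKM at 2 h (median 714). Every culture rose at each step, and the ranges of the 3 times did not overlap. The log2 difference to 0 h was 5.54 (SE 0.50, adjusted p = 9.26e-08) at 1 h and 7.31 (SE 0.50, adjusted p = 7.98e-10) at 2 h. Within single cultures the ratio of 2 h to 0 h ran from 39.7 in D4, which had started highest, to 729 in r1, which had started lowest of the DMSO cultures. Between 1 and 2 h Acod1 rose again by 1.77 (SE 0.50, adjusted p = 0.0156), a call that was lost without the culture UKD (adjusted p = 0.0551).

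The 250 bases of reference sequence before the start site of Acod1 are shown because the gene had the highest mean level of the set after 2 h of LPS. They come from RefSeq on build GRCm38.p6, chr14:103046762-103047011, plus strand, 5′ to 3′, and the capitals mark the only match, on either strand, to GGANNNTCC, a nonamer of the kind that NF-κB can bind, which begins 85 bases before the start. The files use build mm9, so this sequence is not tied to their coordinates.
Acod1: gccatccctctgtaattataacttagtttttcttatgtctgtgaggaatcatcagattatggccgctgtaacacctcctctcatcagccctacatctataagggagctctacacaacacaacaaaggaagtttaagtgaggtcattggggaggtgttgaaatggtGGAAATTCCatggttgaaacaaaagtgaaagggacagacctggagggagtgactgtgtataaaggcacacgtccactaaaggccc
Of 32851 such windows over all genes, 7.27% hold a match to GGANNNTCC. Windows were present for 8 of the 10 genes, not for Nos2 and Hmox1, and besides Acod1 the genes Gch1 and Txnrd1 had a match, 239 and 150 bases before a start. A match is a run of letters and no measure of binding.

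Nos2, the inducible nitric oxide synthase, came later and unevenly. Before LPS its values of 0.00533 to 0.282 RPKM (median 0.0153) rested on 1 to 20 reads per DMSO library, and a value of 1 read may stand for none. At 1 h it stood at 0.0110 to 3.07 RPKM (median 0.0411). Nos2 then had 1 read in UKD, 3 in D3, 6 in D5, 7 in r2, 14 in D4, 37 in r1 and 63 in D6. At 2 h it reached 28.6 RPKM in D4, 7.29 in D5, 47.6 in D6, 18.8 in UKD, 23.8 in r1 and 2.91 in r2, but 0.230 RPKM in D3. A gap of 207 times thus separated the highest and the lowest DMSO culture at 2 h. The same split was seen with MPH, where M2 stayed at 0.203 RPKM and M3 and M4 reached 46.3 and 6.74 RPKM. The 2 low libraries, of D3 and M2, held 41 and 11 Nos2 reads, so these were countable levels. Over the 7 DMSO cultures the log2 difference at 2 h was 4.22 (SE 0.70, adjusted p = 5.73e-05), higher in 7 of 7, and from 1 to 2 h it was 3.73 (SE 0.70, adjusted p = 0.000773). At 1 h the difference of 0.49 (SE 0.70, adjusted p = 0.663) did not pass, with 5 of 7 cultures higher. UKD, counted as higher, had 1 Nos2 read at each time, in about 38.6 M reads at 0 h and 8.49 M at 1 h. Nos2 reached 1 RPKM only in libraries of 2 h and in D6 at 1 h, so it entered the test through the time at which it is high. D3 was not low in Acod1 to the same extent: its 427 RPKM at 2 h was the lowest of the DMSO values but within 2.96 times of the highest.

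Gch1, the first enzyme of the synthesis of tetrahydrobiopterin, the cofactor of Nos2, was present before LPS at 2.62 to 5.98 RPKM (median 4.45). It stood at 5.41 to 15.9 RPKM (median 8.73) at 1 h and at 5.48 to 19.8 RPKM (median 13.1) at 2 h in DMSO cultures. D3, the culture with the lowest Nos2, also had the lowest Gch1 after LPS, and its ratio of 2 h to 0 h was 1.53 where the other DMSO cultures had 2.19 to 4.44. The log2 rise was 0.92 (SE 0.22, adjusted p = 0.00581) at 1 h and 1.36 (SE 0.22, adjusted p = 4.64e-05) at 2 h. Without the 3 shallowest 1 h libraries the 1 h call was lost (0.72, adjusted p = 0.074).

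Sod2, the mitochondrial superoxide dismutase, rose quickly and evenly. Its DMSO values were 6.23 to 13.1 RPKM (median 8.73) at 0 h, 28.7 to 62.1 RPKM (median 37.4) at 1 h and 40.4 to 84.3 RPKM (median 59.4) at 2 h. No 1 h value overlapped the 0 h values, and within cultures the ratio of 2 h to 0 h stayed between 4.62 and 9.76. The log2 rise was 2.04 (SE 0.18, adjusted p = 4.09e-08) at 1 h and 2.71 (SE 0.18, adjusted p = 3.41e-10) at 2 h, with 0.67 (SE 0.18, adjusted p = 0.00946) between those times. Sod2 had the smallest adjusted p of the 10 genes in both comparisons with 0 h.

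Cybb, the oxidase subunit, was already abundant at 18.9 to 84.2 RPKM (median 45.1) before LPS. Its DMSO values were 41.8 to 124 RPKM (median 82.9) at 1 h and 70.2 to 216 RPKM (median 155) at 2 h. The times overlapped across cultures, but within each of the 7 cultures the value rose at both steps, with ratios of 2 h to 0 h of 2.35 to 5.52. At 2 h the log2 rise was 1.73 (SE 0.31, adjusted p = 0.000123). The rise of 0.89 at 1 h (SE 0.31, adjusted p = 0.0467) was at the edge of the threshold. It was lost without D5, D6, UKD, r1 or r2 (adjusted p = 0.0688 to 0.124), with no filter on low values (0.0979) and without the shallow 1 h libraries (0.298), and it passed with culture as a replicate block (9.39e-06).

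Sod2, grouped here with the inflammatory genes, is a protective enzyme as well. Among Hmox1, Nqo1, Gclm, Txnrd1 and Srxn1, Txnrd1, the cytosolic thioredoxin reductase, was the only one that rose in that test. In DMSO cultures it stood at 56.3 to 102 RPKM (median 59.4) at 0 h, 75.6 to 143 RPKM (median 105) at 1 h and 107 to 186 RPKM (median 155) at 2 h. All 7 cultures rose at both steps, and no 2 h value overlapped the 0 h values. The log2 rise was 0.60 (SE 0.12, adjusted p = 0.00152) at 1 h and 1.04 (SE 0.12, adjusted p = 1.01e-06) at 2 h, that is 2.06-fold. From 1 to 2 h it was 0.44 (SE 0.12, adjusted p = 0.0124), which did not pass without the shallow 1 h libraries (0.147).

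Hmox1, which breaks down heme, moved the other way. Its DMSO values were 168 to 461 RPKM (median 229) at 0 h, 131 to 402 RPKM (median 229) at 1 h and 114 to 276 RPKM (median 189) at 2 h. The groups overlapped widely, and 6 of 7 cultures were lower at 2 h than at 0 h, D4 most with a ratio of 0.546, while D3 stayed at 259 and 261 RPKM. The log2 difference of -0.45 (SE 0.14, adjusted p = 0.0113) lay below the median of all genes, but it was -0.22 (adjusted p = 0.277) with median-of-ratios scaling and no longer passed. With both that scaling and the culture block, a setting chosen after the values were seen, it passed (-0.22, adjusted p = 0.038).

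Srxn1, Gclm and Nqo1 changed little with LPS beside their spread between cultures. Srxn1, a sulfiredoxin that repairs overoxidised peroxiredoxins, had 24.9 to 72.4 RPKM (median 27.4) at 0 h and 26.0 to 95.0 RPKM (median 38.3) at 2 h in DMSO cultures. It was higher at 2 h in 7 of 7, by ratios of 1.01 to 1.54, and the log2 difference was 0.31 (SE 0.30, adjusted p = 0.398). Gclm, the modifier subunit of the enzyme that starts glutathione synthesis, had 33.2 to 120 RPKM (median 44.4) at 0 h and 25.6 to 93.7 RPKM (median 39.3) at 2 h. Gclm was lower at 2 h in 7 of 7 cultures, with a log2 difference of -0.26 (SE 0.31, adjusted p = 0.505), close to the median of all genes. Nqo1, a quinone reductase, had 2.15 to 11.9 RPKM (median 3.36) at 0 h and 1.48 to 10.0 RPKM at 2 h, with a log2 difference of -0.31 (SE 0.40, adjusted p = 0.536) and 6 of 7 cultures lower.

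Libraries of 1 culture share their source, and a fit with culture as a replicate block compares times within cultures. With it all 10 genes passed at 2 h in DMSO cultures, where 76.9% of all genes were called, 14.8% higher and 62% lower. The genes added were Srxn1, higher by 0.31 (SE 0.07, adjusted p = 0.000433), Gclm at -0.26 (SE 0.06, adjusted p = 0.00108) and Nqo1 at -0.31 (SE 0.10, adjusted p = 0.00776). With median-of-ratios scaling in the same fit Srxn1 passed at both times, at 0.29 (adjusted p = 0.00552) at 1 h and 0.54 (adjusted p = 6.7e-06) at 2 h. Gclm at -0.03 (adjusted p = 0.653) and Nqo1 at -0.11 (adjusted p = 0.339) did not pass at 2 h with it. At 1 h the block added Gclm at -0.27 (adjusted p = 0.00187), with 53.5% of all genes called, and with the other scaling that was -0.13 (adjusted p = 0.132). Between 1 and 2 h the unblocked fit called 4 of the 10, Acod1, Nos2, Sod2 and Txnrd1, all higher (22% of all genes called, 6.59% higher). The block called 7 (49.2% of all genes), adding Gch1 (0.44, adjusted p = 0.00959) and Cybb (0.83, adjusted p = 1.87e-05), both higher, and Hmox1 (-0.31, adjusted p = 0.00629), lower.

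In MPH cultures Acod1 and Sod2 rose at 1 h of LPS and Acod1, Sod2 and Txnrd1 at 2 h. Acod1 went from 0.830, 21.7 and 1.84 RPKM in M2, M3 and M4 at 0 h to 149, 419 and 112 RPKM at 1 h and to 514, 1523 and 751 RPKM at 2 h. Its log2 rise was 5.55 (SE 0.98, adjusted p = 0.00188) at 1 h, lost without M2 (4.91, adjusted p = 0.0576), and 7.68 (SE 0.98, adjusted p = 2.54e-05) at 2 h. Sod2 went from 9.38, 12.8 and 7.18 RPKM to 49.2, 113 and 66.8 RPKM at 2 h, a log2 rise of 2.85 (SE 0.36, adjusted p = 2.07e-05) after 1.94 (SE 0.36, adjusted p = 0.00274) at 1 h. Txnrd1 went from 97.9, 70.8 and 77.1 RPKM to 181, 146 and 187 RPKM, a log2 rise of 1.06 (SE 0.22, adjusted p = 0.00251) that narrowly missed the threshold without M4 (0.96, adjusted p = 0.0504). In this fit 3.08% of all genes were called at 1 h, 1.89% higher, and 20.7% at 2 h, 5.97% higher. All 3 MPH cultures were also higher at 2 h for Nos2, Gch1, Cybb and Srxn1, so that 7 of the 10 genes were higher in every MPH culture, beside 15.8% of all genes. With culture as a replicate block the calls were 4 at 1 h, adding Cybb (0.67, adjusted p = 0.0397) and Txnrd1 (0.55, adjusted p = 0.00691), and 7 at 2 h. At 2 h the block added Nos2 (3.47, adjusted p = 0.00988), Gch1 (1.12, adjusted p = 0.0042) and Cybb (1.91, adjusted p = 4.86e-06), all higher, and Gclm (-0.29, adjusted p = 0.0141), lower. That fit called 12.1% of all genes at 1 h and 54.5% at 2 h, and with median-of-ratios scaling in it Gclm did not pass (-0.08, adjusted p = 0.508), while Srxn1 did (0.60, adjusted p = 0.0119). Between 1 and 2 h 0 of the 10 passed in limma (3.24% of all genes), with 4 at an unadjusted p below 0.05 (18.3% of all genes), and 5 passed with the block (32.9% of all genes): Acod1, Nos2, Sod2, Cybb and Txnrd1, all higher.

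**Figure D2:**
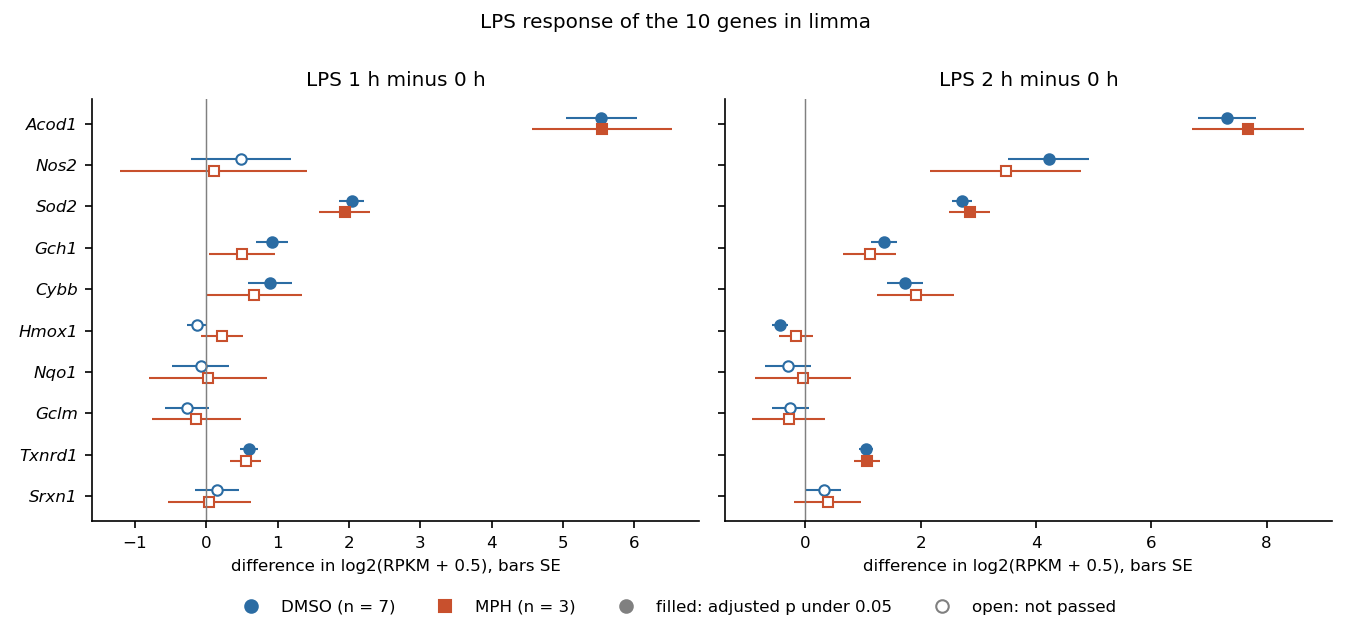
LPS responses of the 10 genes as differences in log2(RPKM + 0.5) from 0 h, at 1 h on the left and 2 h on the right, with bars of 1 SE from limma without a block, blue circles for DMSO (n = 7) and red squares for MPH (n = 3). Filled symbols passed an adjusted p of 0.05. Acod1 stands at 7.31 and 7.68 at 2 h, and in both panels the bars of the treatments overlap for each of the 10 genes. The DMSO and MPH points come from 2 different models, so their gap is not the tested difference between responses.

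No LPS response of the 10 was called different between MPH and DMSO, with 0 of 10 in limma at 1 h (0% of all genes) and 0 at 2 h (0.107% of all genes), and 0 at an unadjusted p below 0.05 at either time (0.811% and 3.11% of all genes). The DMSO cultures in this comparison were D3 to D6 only. At 2 h the difference between the responses was 0.62 (SE 1.29) for Acod1, -0.54 (SE 1.74) for Nos2, 0.23 (SE 0.47) for Sod2 and -0.03 (SE 0.29) for Txnrd1. The standard errors of Acod1 and Nos2 leave room for differences of more than 2-fold in either direction. With culture as a replicate block 0 of 10 passed at both times, where 0.195% and 1.43% of all genes were called.

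MPH itself was compared with DMSO over M2 to M4 and D3 to D6, and 0 of the 10 genes passed at 0, 1 or 2 h in limma. Of all 10239 genes 0.869% passed at 0 h, 0% at 1 h and 0.869% at 2 h. At an unadjusted p below 0.05 there were 0 of the 10 at any time, beside 6.69%, 3.19% and 9.08% of all genes at 0, 1 and 2 h. The groups overlapped for every one of the 10 at every time, whereas all MPH values lay above all DMSO values for 3.56%, 0.918% and 4.29% of all genes and below them for 3.98%, 0.566% and 5.22%. The labels pair no MPH culture with a DMSO culture by source, so this fit treats them as unrelated. Over all other genes, however, deviations from the group means correlated at 0.67 to 0.87 between M2 and D3, M3 and D4, and M4 and D5. A source that cultures of both treatments share was not modelled, and its spread would stay in the standard errors. The absence of calls thus does not show that MPH left the 10 genes unchanged. Without the 1 h library labelled M4, 137 of 10231 genes passed at 1 h, and 0 of the 10, so the 1 h background and the 1 h differences below rest in part on that library.

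Srxn1 had the highest difference at each time. At 0 h it stood at 107, 43.6 and 72.8 RPKM in M2, M3 and M4 and at 72.4, 25.8, 51.8 and 24.9 RPKM in D3, D4, D5 and D6. At 2 h it stood at 144, 50.4 and 105 RPKM with MPH and at 95.0, 26.0, 77.3 and 38.3 RPKM with DMSO. Both M2 and M4 lay above all 4 DMSO cultures at 0 h and at 2 h, whereas M3 lay between them. The log2 differences were 0.82 (SE 0.54, adjusted p = 1) at 0 h, 0.63 (SE 0.54, adjusted p = 1) at 1 h and 0.81 (SE 0.54, adjusted p = 0.832) at 2 h. Over 16 alternative settings the 0 h difference ran from 0.45 to 1.15 and the 2 h difference from 0.43 to 1.23, all positive and none past the threshold. At 1 h, where M4 was at 54.2 RPKM, it ran from -0.05 to 0.95.

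Gch1 before LPS stood at 4.38, 8.87 and 8.83 RPKM with MPH and at 3.58, 5.98, 5.12 and 4.45 RPKM with DMSO. Here M3 and M4 lay above all 4 DMSO cultures and M2 among them, with a log2 difference of 0.53 (SE 0.43, adjusted p = 1). At 2 h M4 had the highest Gch1 of all libraries with 27.8 RPKM, and the difference was 0.38 (SE 0.43, adjusted p = 1). Hmox1 before LPS was at 212, 174 and 236 RPKM in M2 to M4, and in D3 to D6 at 259, 228, 312 and 229 RPKM, which gave a log2 difference of -0.31 (SE 0.28, adjusted p = 1). For Acod1 the difference was -0.42 (SE 0.92) at 0 h, -0.22 (SE 0.92) at 1 h and 0.21 (SE 0.92) at 2 h. Sod2 differed by -0.02 at 0 h, -0.09 at 1 h and 0.21 at 2 h (SE 0.33), and Txnrd1 by 0.24, 0.15 and 0.21 (SE 0.21). The other differences, of Nos2, Cybb, Nqo1 and Gclm, ran from -0.68 for Nos2 at 1 h to 0.43 for Nqo1 at 2 h.

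**Figure D3:**
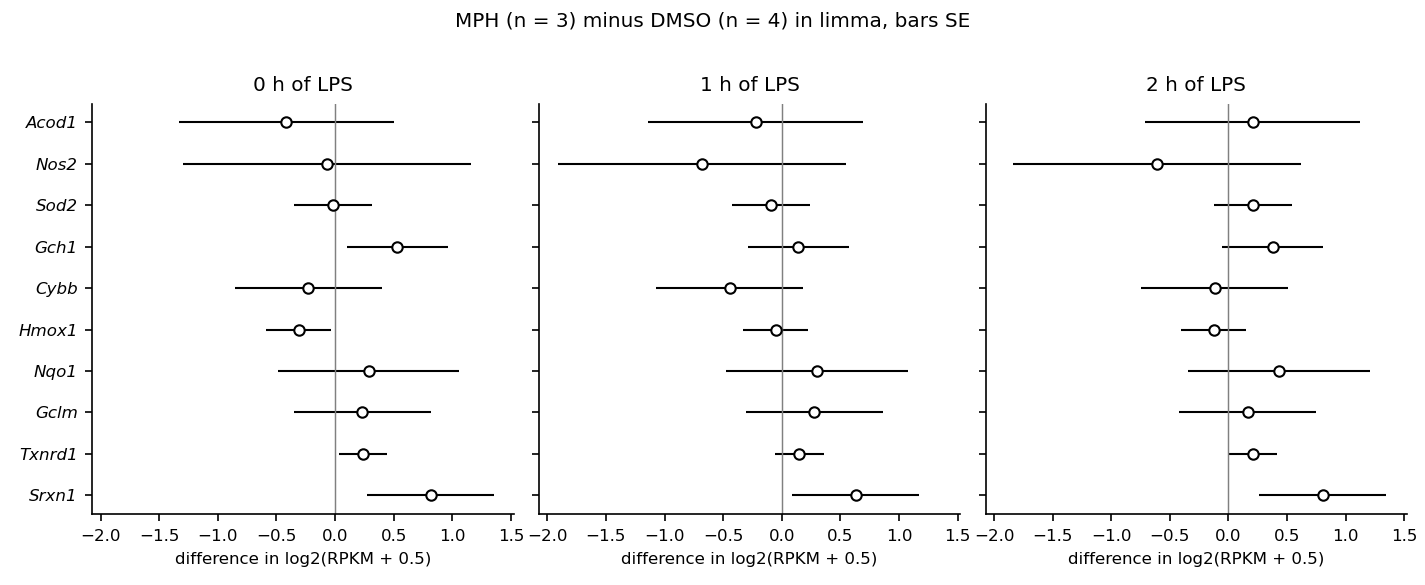
MPH (n = 3) minus DMSO (n = 4) for the 10 genes at 0, 1 and 2 h of LPS as differences in log2(RPKM + 0.5), with bars of 1 SE from limma. All symbols are drawn open, and none of the differences passed. Srxn1 is the gene farthest above 0 at each time, with 0.82, 0.63 and 0.81.

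The spread between cultures was itself patterned in the protective genes. Before LPS, D3, D5 and UKD held the 3 highest DMSO values of Hmox1, Nqo1, Gclm, Txnrd1 and Srxn1 alike. Gclm stood at 103, 85.3 and 120 RPKM in them and at 33.2 to 44.4 RPKM in D4, D6, r1 and r2, with nothing in between. Srxn1 stood at 72.4, 51.8 and 66.0 RPKM in them and at 24.9 to 27.4 RPKM in the other 4. Nqo1 split less sharply, with 11.9, 5.88 and 7.28 RPKM against 2.15 to 3.36 RPKM. Cybb had the reverse order, with 18.9 to 22.3 RPKM in D3, D5 and UKD and 45.1 to 84.2 RPKM in the other 4. This is a description of an order noticed in the data, with no test.

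The order lasted through LPS. D3, D5 and UKD held the 3 highest values of the same 5 genes at 1 h and of Hmox1, Nqo1, Gclm and Srxn1 at 2 h, and the 3 lowest of Cybb at all times. They also held the 3 lowest of Acod1 at 1 and 2 h and of Nos2, with few reads, at 1 h. Over all 10355 genes measured, D3, D5 and UKD held the 3 highest values for 5.05%, 4.86% and 7.78% at 0, 1 and 2 h and the 3 lowest for 11%, 7.44% and 9.09%. Among 24 further genes known as NRF2 targets, 9, 10 and 12 had their 3 highest values there and 0 their 3 lowest. Examples present at all 3 times are Gclc, the catalytic partner of Gclm, Prdx1, a peroxiredoxin, Gss, the glutathione synthetase, and Gsta3, a glutathione transferase. Of 9 regulators of NRF2, 0 had their 3 highest values in D3, D5 and UKD at any time. Nfe2l2, which encodes NRF2, had its 3 lowest values in them at 2 h. In the MPH cultures Nqo1, Gclm and Srxn1 were highest in M2 and lowest in M3 at 0 h, and Cybb was highest in M3. What sets these cultures apart is not given in the sources used here, and its part in the comparisons above was not tested.

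**Figure D4:**
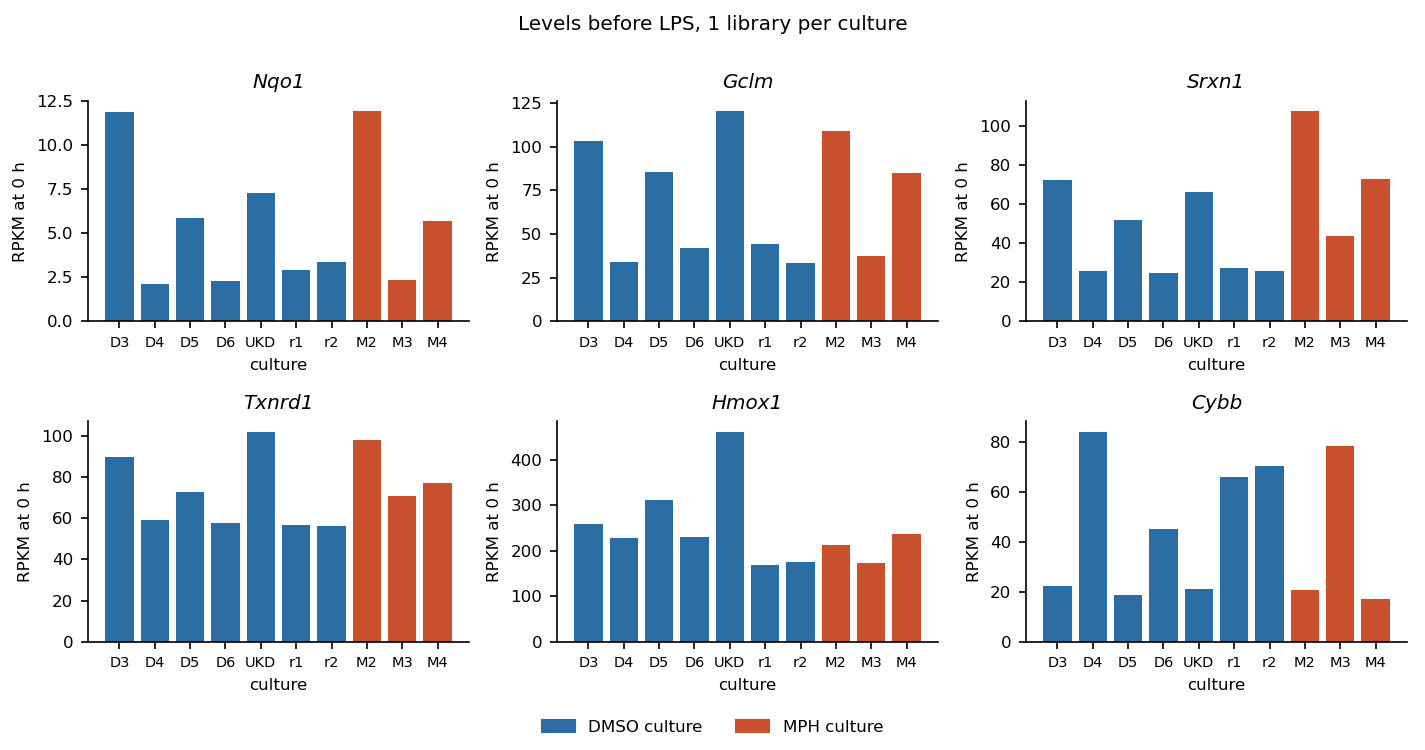
RPKM before LPS of Nqo1, Gclm, Srxn1, Txnrd1, Hmox1 and Cybb in each culture, 1 library per bar, blue for DMSO and red for MPH. D3, D5 and UKD are the 3 highest blue bars in the first 5 panels and the 3 lowest in the Cybb panel, where they stand at 18.9 to 22.3 RPKM.

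The sequences before the start sites of Srxn1 and Gclm are shown because before LPS these genes had the widest gap between D3, D5 and UKD and the other DMSO cultures among the protective genes (at 1 h that of Nqo1 was wider). Both come from RefSeq on GRCm38.p6, plus strand, 5′ to 3′, 250 bases ending just before the start: chr2:152105274-152105523 for Srxn1 and chr3:122245307-122245556 for Gclm. Capitals mark matches on either strand to TGANNNNGC, a loose pattern for the core of an antioxidant response element, and to TGAGTCA, an AP-1 site. The loose pattern leaves the fourth base open, so not every match to it is such a core.
Srxn1: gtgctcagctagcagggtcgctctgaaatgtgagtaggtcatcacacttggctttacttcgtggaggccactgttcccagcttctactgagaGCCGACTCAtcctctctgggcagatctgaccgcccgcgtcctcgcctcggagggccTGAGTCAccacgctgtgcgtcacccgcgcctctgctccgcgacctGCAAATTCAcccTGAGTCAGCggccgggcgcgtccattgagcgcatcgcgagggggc
Gclm: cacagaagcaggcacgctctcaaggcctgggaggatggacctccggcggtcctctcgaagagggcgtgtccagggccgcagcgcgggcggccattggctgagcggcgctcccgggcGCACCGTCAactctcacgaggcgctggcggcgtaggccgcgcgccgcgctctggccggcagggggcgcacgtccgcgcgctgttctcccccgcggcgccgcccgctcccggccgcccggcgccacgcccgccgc
Srxn1 holds 3 matches to TGANNNNGC, beginning 158, 57 and 45 bases before the start, and 2 to TGAGTCA, at 102 and 45. The match at 45 is shared, so that 1 run of letters reads as both. Gclm holds 1 match to TGANNNNGC at 134. Of all 32851 windows 35.2% hold a match to TGANNNNGC and 4.46% to TGAGTCA, so a single match of the first kind is common. Txnrd1, with 3 windows, has a match to TGANNNNGC in 2 of them, at 92 and 84, and the windows of Nqo1, Sod2, Gch1, Cybb and Acod1 have none. TGACGTCA, a cAMP response element, is found in 1.55% of all windows and in no window of these genes, which says only that these letters are not in these bases.

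Other genes of the same pathways give the setting of these values in the DMSO cultures at 2 h against 0 h, by the unblocked fit. In it 54.1% of all genes were called, 10.5% higher and 43.6% lower, and the counts below have to be read beside these shares. Of the 24 further NRF2 targets, 3 rose and 4 fell. Slc7a11, the cystine importer, rose by 3.75 (SE 0.34, adjusted p = 3.5e-08) on the log2 scale, Sqstm1, an autophagy adaptor, by 2.22 (SE 0.25, adjusted p = 6.17e-07) and Abcc1 by 0.50 (adjusted p = 0.0132). Osgin1 fell by 1.92 (SE 0.23, adjusted p = 1.4e-06), and the falls of G6pdx, Slc48a1 and Gclc of 0.32 to 0.51 were lost with median-of-ratios scaling, which called 5 higher and 1 lower. The median of this list was -0.14, beside -0.25 over all genes.

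Of 9 regulators of NRF2 tested, 3 rose and 3 fell. Maff, a small MAF protein that pairs with NRF2, rose by 4.11 (SE 0.21, adjusted p = 1.32e-11), and Nfe2l2, which encodes NRF2, rose by 1.29 (SE 0.17, adjusted p = 5.23e-06), with Nfe2l1 at 0.52 (adjusted p = 4.21e-05). Bach1, a repressor of Hmox1, fell by 0.60 (adjusted p = 0.00521), Keap1 by 0.44 (adjusted p = 0.0385) and Pgam5 by 0.35 (adjusted p = 0.00156), and these 3 falls did not pass with median-of-ratios scaling, which called 4 higher and 0 lower. Maff (3.37) and Nfe2l2 (0.96) also rose in the MPH cultures, with adjusted p = 7.79e-07 and 0.0423.

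Around Cybb, 3 of 7 oxidase genes tested rose: Ncf1, a cytosolic subunit, by 0.82 (SE 0.12, adjusted p = 1.47e-05), Ncf4 by 0.30 (adjusted p = 0.0272) and Nox1, another catalytic subunit, by 1.47 (SE 0.35, adjusted p = 0.00169). Rac1 fell by 0.20 (adjusted p = 0.0278) and stood at 0.03 with median-of-ratios scaling, a change of sign. Around Nos2 and Gch1, 3 of 9 genes tested rose, with Slc7a2, an importer of arginine, at 2.68 (SE 0.21, adjusted p = 5.88e-09), Arg2, a mitochondrial arginase, at 2.21 (SE 0.39, adjusted p = 0.000117) and Slc7a1 at 0.29 (adjusted p = 0.0349). Arg2 (at most 0.195 RPKM before LPS) and Nox1 (at most 0.618 RPKM) reached 1 RPKM in DMSO cultures only after LPS, so they too entered the test through the times at which they are high. Pts, the second enzyme of tetrahydrobiopterin synthesis, fell by 0.46 (adjusted p = 9.39e-05), also with the other scaling (-0.25, adjusted p = 0.0121), and Qdpr by 0.26 (adjusted p = 0.0159), which was lost there. Slc7a2 (3.63, adjusted p = 4.86e-05) and Arg2 (3.12, adjusted p = 0.00501) rose in the MPH cultures as well.

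Of 16 genes of the citric acid cycle and itaconate metabolism around Acod1, 0 rose and 4 fell, where 10.5% of all genes rose and 43.6% fell. The list median was -0.17, beside -0.25 over all genes. Idh1 fell by 0.53 (adjusted p = 0.0012), Fh1 by 0.35 (adjusted p = 0.000133), Aco1 by 0.36 (adjusted p = 0.0108) and Sdha by 0.24 (adjusted p = 0.0133), and with median-of-ratios scaling Idh1 alone passed (-0.31, adjusted p = 0.0387). Among 11 superoxide and peroxide enzymes beside Sod2, Prdx5 rose by 1.23 (SE 0.18, adjusted p = 1.7e-05), and the falls of Sod1, Prdx2 and Gpx4 of 0.26 to 0.32 were lost with the other scaling. Of 12 thioredoxin and glutathione genes, 5 fell and 1 rose, the rise being that of Slc7a11 again. Txnip, an inhibitor of thioredoxin, fell by 2.82 (SE 0.31, adjusted p = 5.22e-07), and with the other scaling it was the only fall left, beside 3 rises. Of 12 heme and iron genes, 3 rose, among them Lcn2, a siderophore binder, by 2.17 (SE 0.40, adjusted p = 0.00018) and Slc11a2, an iron transporter, by 1.19 (SE 0.18, adjusted p = 2.78e-05). In that list 4 fell, among them Hmox2, the constitutive heme oxygenase, by 0.70 (SE 0.12, adjusted p = 7.97e-05) and Slc40a1, the iron exporter, by 1.23 (SE 0.30, adjusted p = 0.00207), and these 2 also passed with the other scaling.

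All 7 early LPS genes taken as a check of the treatment rose at 1 and 2 h under DMSO and under MPH, with Tnf at 7.53 (SE 0.25, adjusted p = 1.3e-14) at 1 h under DMSO. In none of the 9 lists was a gene called for MPH against DMSO at 0, 1 or 2 h, or for a difference between the LPS responses, in limma. Of all genes 0.869%, 0% and 0.869% were called for MPH at these times. For the responses 0% were called at 1 h and 0.107% at 2 h. The absence of calls in the lists is thus near the general share.

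Over the 30 libraries, which share cultures and the LPS time course, the genes fell into patterns that are described here by Pearson's r of log2(RPKM + 0.5), with no test. Acod1 and Sod2 ran closest, with r = 0.97, followed by Nqo1 and Gclm with 0.92, Nqo1 and Srxn1 with 0.86, and Gclm and Srxn1 with 0.85. Cybb ran opposite to Gclm (-0.75), Nqo1 (-0.68) and Hmox1 (-0.67). Txnrd1 stood between the groups, at 0.76 with Sod2 and 0.65 with Srxn1. Among 10345 other genes, Acod1 was most like Cxcl10 (0.98), Slfn2 (0.98) and Cflar (0.97), and Sod2 most like Clec4e (0.98), Traf1 (0.98) and Ripk2 (0.97). Nos2 was most like Shisa3 (0.96), Adora2a (0.95) and Cers6 (0.95), Gch1 most like Bcl3 (0.93), Snx20 (0.92) and Rrad (0.92), and Cybb most like Ifi203 (0.95), Gbp3 (0.95) and Filip1l (0.95). On the protective side, Nqo1 was most like Esd (0.96), Slc22a4 (0.95) and Ttc12 (0.95), and Gclm most like Creg1 (0.96), Gss (0.95) and Abcb6 (0.95). Among the 3 genes most like Srxn1 were Gpc1 (0.93) and Vim (0.93), among the 3 most like Txnrd1 were Msantd3 (0.90) and Cd44 (0.90), and Hmox1 was most like Smg9 (0.89), Inf2 (0.88) and Cuedc1 (0.88).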

How the data were processed

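RNA was sequenced from 30 libraries of 10 macrophage cultures. Per the submitters' processing notes, FastQC, cutadapt, HISAT2, SAMtools and build mm9 were used, and no counting program is named in the sources used here. The authors deposited RPKM values for 44401 RefSeq transcripts with 24761 symbols, of which 8852 have more than 1 transcript, and for each symbol the transcript with the highest mean was kept (Nos2 has 3 and Txnrd1 4). No value equals 0. Reads per library were estimated from the steps between low values, so depth is approximate. Values of Nos2 at up to 60 reads were whole multiples of 1 read within 0.001.

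Values were analysed as log2(RPKM + 0.5). Genes reaching 1 RPKM in 3 or more of the fitted libraries entered limma-trend (limma 3.58.1, R 4.3.3), with Benjamini-Hochberg adjustment over all genes and a threshold of 0.05. One model (21 libraries, 10239 genes) held M2 to M4 with D3 to D6 and gave MPH against DMSO, LPS under MPH and the differences between responses. LPS under DMSO came from a second model of all 21 DMSO libraries (10212 genes) that adjusts for how the cultures are named (D, UKD or r). Deviations from the group means correlated at 0.63 to 0.91 between libraries of 1 culture, over 30 pairs, so culture names pair the times and blocked values are printed where they change a call. Both models without a block were tried on simulated data, for MPH against DMSO at 2 h and for LPS 2 h against 0 h under DMSO. The simulated libraries were independent, unlike those of 1 culture here. Fits with a block, with the other scaling or for differences between responses were not simulated.

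Alternatives were other pseudocounts (0.1 and 1), no filter, median-of-ratios scaling, the mean of all transcripts of a symbol, blocks, all 7 DMSO cultures, and leaving out cultures, the shallowest 1 h libraries or the 1 h library labelled M4. The block together with the other scaling was added after the values were seen. The 10 genes and the lists were chosen with earlier results of these data known. Named from each list are up to 4 genes past the threshold with the smallest p in a comparison, and for each of the 10 genes the 3 others with the highest Pearson r over the libraries, of which 2 are not reported here. Names beyond that rule (Abcc1, Slc48a1, Gclc, Bach1, Keap1, Slc7a1, Slc40a1 and those of the culture order) were chosen after their values were seen. Promoter windows come from RefSeq. The series' design text also names a time of 6 h, not analysed here.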

Additional observations from a re-analysis of the deposited data

Results flagged for a closer look

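Over the 10 genes and 3 times, 30 groups of 7 DMSO libraries were searched for a sample far from the others, and 5 stood out, all at the high end. For normally distributed values chance alone flags about 1 in 20. The search used RPKM, which need not be so distributed, and the groups share cultures, so that rate is only a rough guide. Before LPS, Acod1 was 31.9 RPKM in D4, with the next culture at 9.88. Nos2 was highest in D6 both before LPS, at 0.282 RPKM (20 reads, next culture 0.0692), and at 1 h, at 3.07 RPKM (63 reads, next culture 0.378). Sod2 at 1 h was 62.1 RPKM in D6, with the next culture at 40.2. The 1 h library of D6 was the shallowest of the series. At 2 h Nqo1 was 10.0 RPKM in D3, with the next culture at 5.04.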

How the results depend on the processing

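For MPH against DMSO and for the differences between LPS responses, 0 of the 10 genes were called under every alternative run. Called numbers for LPS that moved by more than 1.5 times are these. Under MPH, leaving out 1 culture in turn gave 1 to 2 genes at 1 h (1 without M2). The culture as a replicate block gave 4 at 1 h, 7 at 2 h and 5 for 2 h against 1 h under MPH, and 7 for 2 h against 1 h under DMSO, and with median-of-ratios scaling in the same fit these were 4, 7, 5 and 8. Without the shallowest 1 h libraries, 3 genes were called at 1 h under DMSO. The block left the 1 h and 2 h counts under DMSO within 1.5 times, with the added genes given above. Of 1730 values of single genes under alternatives, 1672 stayed on the same side of the threshold (124 of these changed sign with no call in either setting), 45 passed only in the alternative and 13 only in the reported fit.

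Leaving out M4 or its 1 h library changed no call of MPH against DMSO among the 10, whereas over all genes 137 passed at 1 h without that library and 0 with it. The labels give D3 and M3, and D4 and M4, the same number. With that number as a replicate block 0 of the 10 were called at 0, 1 and 2 h, but same-numbered cultures did not deviate together (r of -0.63 to -0.34 for D3 with M3 and -0.60 to -0.38 for D4 with M4). Median-of-ratios scaling moved the median of all genes by 0.206 for LPS at 2 h and 0.130 at 1 h under DMSO, 0.191 at 2 h under MPH and 0.114 for 2 h against 1 h under MPH. The causes of these changes were not tested. Depth limits Nos2 before LPS, where 1 to 20 reads were counted per library, and at 1 h, where 1 to 63 were counted.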

Other observations

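Cultures of different treatment resembled each other in ways that the labels do not give. Over all other genes, deviations from the group means correlated at 0.82 to 0.83 between M2 and D3, at 0.75 to 0.87 between M3 and D4 and at 0.67 to 0.85 between M4 and D5 over the 3 times. Xist was at 15.6 to 21.5 RPKM in D4 and M3 and at most 0.0104 RPKM in the other cultures, and the Y-linked gene Ddx3y was at most 0.0356 RPKM in D4 and M3 and at 4.69 to 12.3 RPKM elsewhere. With each MPH culture set beside the DMSO culture it most resembled, an order chosen after the values were seen and given with no test, Srxn1 with MPH over DMSO was 1.48, 1.69 and 1.41 before LPS in M2, M3 and M4. At 2 h these ratios of Srxn1 were 1.51, 1.94 and 1.36, and at 1 h 1.34, 2.26 and 0.87. Gch1 had ratios of 1.22, 1.48 and 1.73 before LPS, 1.53, 1.58 and 0.99 at 1 h and 1.43, 1.37 and 1.90 at 2 h. Hmox1 had ratios of 0.82, 0.76 and 0.76 before LPS, 0.65, 1.03 and 1.23 at 1 h and 0.67, 1.09 and 0.99 at 2 h. Cybb had 0.90 to 0.93 before LPS, 0.68 to 0.86 at 1 h and 0.96 to 1.04 at 2 h. Acod1 had 0.59, 0.68 and 0.97 before LPS, 0.89, 1.24 and 0.84 at 1 h and 1.20, 1.20 and 1.17 at 2 h. Sod2 had 0.94 to 1.07 before LPS, 0.94 to 1.33 at 1 h and 1.22 to 1.33 at 2 h, and Txnrd1 had 1.05 to 1.19, 0.96 to 1.31 and 1.12 to 1.27 at these times. Nqo1 had 0.97 to 1.08, 0.70 to 1.21 and 1.11 to 1.47, Nos2 had 0.54 to 2.36, 0.41 to 1.08 and 0.88 to 1.62, and Gclm had 0.96 to 1.15 at all times. The Nos2 libraries with the lowest values at 2 h, D3 and M2, are 1 of these pairs.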
